A study of Mus musculus with 4 samples.

Results

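The 10 liver apolipoprotein genes Apoa1, Apoa2, Apoa4, Apoa5, Apob, Apoc1, Apoc2, Apoc3, Apoe and Apoh were taken by name from tables of 35522 genes. All 10 were found, and all 10 were among the 13303 genes with enough reads to test. Liver RNA of C57BL/6 mice was sequenced in 4 libraries, all taken 1 day after a dose of diethylnitrosamine (DEN), which enzymes of the liver turn into a DNA-damaging carcinogen. The libraries labelled Control (n = 2) came from livers of that genotype given DEN, and those labelled Dph1 KO (n = 2) from livers given DEN in which Dph1 is labelled as knocked out. Dph1 encodes a subunit of the enzyme that begins the synthesis of diphthamide, a histidine modification found on eEF2, which moves ribosomes along mRNA. Both groups received DEN, and livers without it were not analysed here. The age and sex of the mice, the cells and exons in which Dph1 was removed, and whether each library is 1 animal are not stated in the labels. The p-values therefore measure the spread between these libraries, which may be technical.

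Apolipoproteins are the protein part of lipoproteins, the particles that carry cholesterol and triglyceride in blood. The liver is their main source in plasma. It secretes very low density lipoprotein (VLDL) built on a single Apob molecule, and it supplies Apoa1 and Apoa2 to high density lipoprotein (HDL). The smaller proteins move between particles and steer lipolysis by lipoprotein lipase, uptake by receptors and exchange of lipid.

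Each library held 19474596 to 21137358 gene reads, and Dph1 itself stood at 70.2 and 68.2 CPM in Control and at 17.8 and 31.5 CPM in Dph1 KO (log2 fold change -1.49, SE 0.26, edgeR adjusted p = 0.0107). CPM (counts per megaread of the library total) are given after scaling by TMM, a method that aligns the libraries on the bulk of their genes (Control factors 0.945 and 0.884, Dph1 KO factors 1.16 and 1.03). The 7 hepatocyte markers, of which Alb was the most abundant, summed to 34673 to 46377 CPM in Control and 40493 to 42701 CPM in Dph1 KO, and none was called different. Fold changes across all genes followed the GC content of the transcripts, with a Spearman correlation of -0.62 over 12504 protein-coding genes, so the fit was repeated after removal of a trend on GC and length.

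Apoa1, Apoc3, Apoa4 and Apoa5 lie next to each other on chromosome 9 (GRCm38, 46228630 to 46271919, 43.3 kb), with Apoc3 on the opposite strand to the other 3. Apoc2, Apoc1 and Apoe lie on chromosome 7 (19671579 to 19699166, 27.6 kb), all on the minus strand, together with Apoc4. Apoa2 is on chromosome 1 (171225054 to 171226379), Apoh on chromosome 11 (108395297 to 108414396) and Apob on chromosome 12 (7977677 to 8016839). Promoters of 8 of the 10 were matched in RefSeq (GRCm38.p6), with Apoc1 and Apoc3 not among them. The 250 bases before the start site are shown for Apoa1, Apoa4 and Apob, the members with the largest fold changes. Capitals in Apob mark the TATA box letters TATAAA.
Apoa1 (chr9:46228380-46228629, + strand): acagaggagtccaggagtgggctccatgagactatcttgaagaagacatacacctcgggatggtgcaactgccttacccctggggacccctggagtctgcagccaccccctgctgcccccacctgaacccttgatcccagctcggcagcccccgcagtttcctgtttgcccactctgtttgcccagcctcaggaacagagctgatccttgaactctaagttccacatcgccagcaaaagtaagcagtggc
Apoa4 (chr9:46240594-46240843, + strand): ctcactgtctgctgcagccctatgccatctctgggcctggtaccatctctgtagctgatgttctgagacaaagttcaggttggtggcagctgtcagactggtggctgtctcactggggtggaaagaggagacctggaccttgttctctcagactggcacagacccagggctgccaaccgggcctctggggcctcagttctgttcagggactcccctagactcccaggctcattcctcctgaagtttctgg
Apob (chr12:7977427-7977676, + strand): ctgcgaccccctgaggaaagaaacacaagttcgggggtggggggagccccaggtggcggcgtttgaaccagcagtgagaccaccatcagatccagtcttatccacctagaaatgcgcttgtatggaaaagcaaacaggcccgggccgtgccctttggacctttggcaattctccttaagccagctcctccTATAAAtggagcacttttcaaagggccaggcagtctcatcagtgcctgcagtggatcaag
In the same window of all 32851 RefSeq mouse promoters, the letters TATAAA occurred in 12.4% and, among the members, in Apob (55 to 60 bases before the start), Apoa5 (26 to 31 bases before it) and Apoa2, farther from it. The other letters searched were AGGTCA (14.02% of promoters), GTTAAT (6.43%), CACGTG (6.02%), CAAAGTCCA (0.384%) and ATTGG (33.8%). All were read on both strands. Among the members, AGGTCA occurred in Apoc2 and Apoh, GTTAAT in Apoc2, CACGTG in Apoa5, ATTGG in Apoa2 and CAAAGTCCA in none. Apoa1 and Apoa4 held none of the letters searched in the window. Only exact letters were searched, so variant forms of these sites would be missed.

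The largest difference among the members was a lower level of Apoa1 transcripts in Dph1 KO livers, while Apoa4, its neighbour on chromosome 9, went the other way. Of the 10 genes, 1 fell (Apoa1), 1 rose (Apoa4) and 8 did not pass the threshold, an adjusted p below 0.05 in edgeR's quasi-likelihood test with Benjamini-Hochberg adjustment over all genes. Over all 13303 tested genes 12.3% were called, 7.47% lower and 4.86% higher, so 2 of 10 is a share close to the background. The median log2 fold change was -0.082 for the 10 genes and 0.041 for all tested genes. At an unadjusted p under 0.05 there were 3 members, the third being Apob, against 34.2% of all tested genes. With a library left out, 1 member was called without Control replicate 1 (5.43% of all genes called), 1 without Control replicate 2 (3.82%), 2 when Dph1 KO replicate 1 was dropped (9.73%) and 5 when its replicate 2 was (39.3%). No scaling beyond the library total called 3 members (25.7% of all genes), DESeq2 3 (15.0%) and limma-trend on log2(TPM + 1) 0 (0.0226%).

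**Figure D1:**
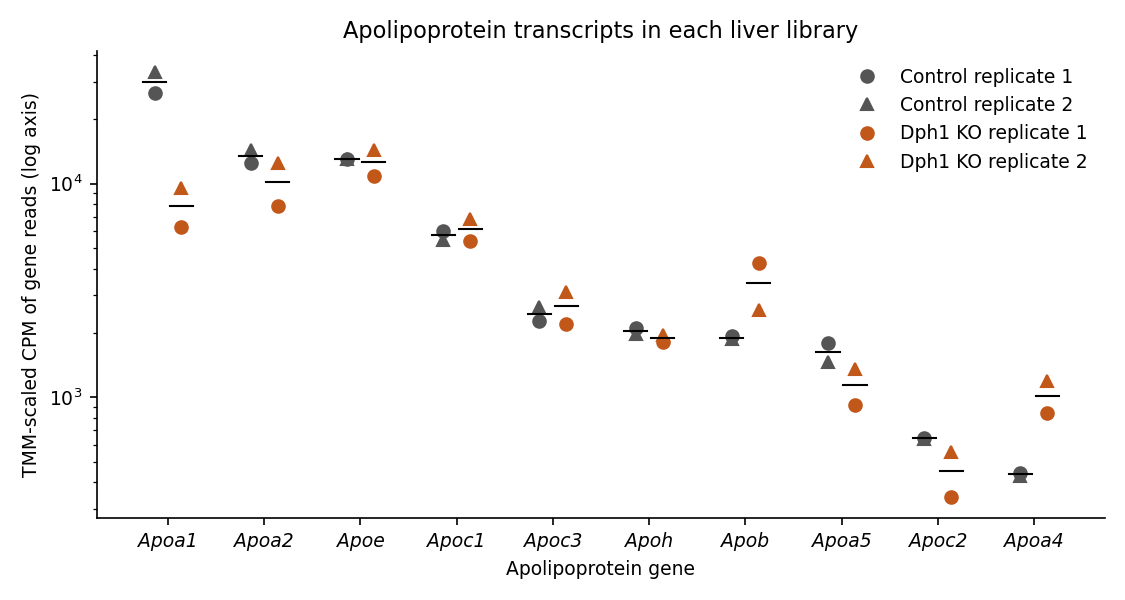
TMM-scaled CPM of the 10 apolipoprotein genes (log axis) in each library, with circles for replicate 1, triangles for replicate 2 and a bar at the mean of each genotype (n = 2). Both Dph1 KO libraries lie below both Control libraries for Apoa1 (6261 and 9493 against 26396 and 33242 CPM) and above them for Apoa4 and Apob.

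Apoa1 encodes the main structural protein of HDL, which accepts cholesterol from cells and activates the enzyme LCAT. Control replicates 1 and 2 had 26396 and 33242 CPM, and Dph1 KO replicates 1 and 2 had 6261 and 9493 CPM. Every Control library thus held more than both Dph1 KO libraries, and the higher Dph1 KO value was well under the lower Control value. The log2 fold change was -1.92 (SE 0.38, edgeR adjusted p = 0.0161), a level 3.79-fold lower. In Control, Apoa1 was the third and the second most abundant transcript of the liver by CPM, and in Dph1 KO it ranked 12 and 10. Among 115 genes with a mean of at least 1000 CPM, its fold change was the second lowest. With the GC and length trend removed it was -1.34 (SE 0.21, edgeR adjusted p = 0.00813), and with any 1 library left out it lay between -2.23 and -1.62.

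Apoa2 encodes the other main HDL protein. It had 12487 and 14298 CPM in Control and 7874 and 12512 CPM in Dph1 KO, where replicate 2 lay within the Control range and replicate 1 below it. Its log2 fold change was -0.39 (95% interval -1.18 to 0.39, edgeR adjusted p = 0.445), and -0.053 with the GC and length trend removed. The number of Apoa1 reads for each Apoa2 read, which does not depend on library scaling, was 2.11 and 2.32 in Control, against 0.795 and 0.759 in Dph1 KO. Apoa1 reads therefore outnumbered Apoa2 reads in both Control libraries and fell short of them in both Dph1 KO libraries. Exon lengths differ (985 bases for Apoa1 and 521 for Apoa2), and by TPM, which accounts for length, the Control means were 45347 and 38591.

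Apob encodes the large scaffold protein around which VLDL is assembled. Its level was 1928 and 1864 CPM in Control, against 4267 CPM in the first Dph1 KO library and 2560 CPM in the other, so the genotypes did not overlap but the Dph1 KO libraries were far apart. The log2 fold change was 0.85 (SE 0.33, edgeR adjusted p = 0.101) and was not called. It was called by DESeq2 (0.81, adjusted p = 0.0205) and without scaling beyond the library total (1.13, edgeR adjusted p = 0.00669). Leaving out Dph1 KO replicate 2 gave 1.19 (edgeR adjusted p = 0.00526), and leaving out Dph1 KO replicate 1 gave 0.46. The Apob transcript has a GC content of 43.5%, the lowest of the members, and with the GC and length trend removed the value was 0.11 (SE 0.19).

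Apoa4, Apoa5 and Apoc3 share the chromosome 9 cluster with Apoa1. Apoa4 encodes a protein of HDL and of triglyceride-rich particles whose transcript in mouse liver is known to vary with triglyceride load. It had 443 and 427 CPM in Control and 845 and 1187 CPM in Dph1 KO, with no overlap, and the log2 fold change was 1.22 (SE 0.28, edgeR adjusted p = 0.0258), a level 2.33-fold higher. Its GC content of 57.6% puts it in the fifth of genes with the highest GC, whose median log2 fold change was -0.56, and with the GC and length trend removed it was 1.79 (SE 0.17, edgeR adjusted p = 0.000648). The call was lost without Control replicate 1 (1.24, edgeR adjusted p = 0.143) and without Control replicate 2 (1.20, edgeR adjusted p = 0.186), and leaving out 1 library gave values from 0.97 to 1.47.

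Apoc3 encodes an inhibitor of lipoprotein lipase and of the uptake of particle remnants. It had 2271 and 2648 CPM in Control and 2210 and 3118 CPM in Dph1 KO, ranges that overlap, with a log2 fold change of 0.11 (95% interval -0.56 to 0.79, edgeR adjusted p = 0.815). With the GC and length trend removed it was called higher (0.75, edgeR adjusted p = 0.0398). Apoa5 encodes a protein that promotes lipolysis at the vessel wall. It had 1791 and 1464 CPM in Control and 918 and 1354 CPM in Dph1 KO, all below Control, but was not called (log2 fold change -0.52, 95% interval -1.19 to 0.15, edgeR adjusted p = 0.245). Without Dph1 KO replicate 2, Apoa5 was called lower (-0.81, edgeR adjusted p = 0.0346), and with the GC and length trend removed it was at -0.10 (SE 0.20).

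Read ratios within the cluster showed the unequal change directly. There were 11.6 and 12.6 Apoa1 reads for each Apoc3 read in Control, and 2.83 and 3.04 in Dph1 KO. For each Apoa4 read there were 59.5 and 77.8 Apoa1 reads in Control, against 7.41 and 8.0 in Dph1 KO. Apoa4 itself held 0.195 and 0.161 reads for each Apoc3 read in Control and 0.382 and 0.381 in Dph1 KO. Within each pair of genes the 2 genotypes did not overlap, and the 2 libraries of a genotype differed little beside the distance between genotypes. The lack of overlap alone does not set these pairs apart, because it held for every other ratio computed for the members. It held even for Apoc1 reads per Apoe read, 2 genes that were not called (Control 0.458 and 0.417, Dph1 KO 0.493 and 0.477). The smallest two-sided p that an exact permutation test of 2 against 2 libraries allows is 0.333, so these ratios are given without a test. For these libraries the ratios describe an unequal change, and they do not show which of a pair changed.

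No member on chromosome 7 was called. Apoe, the ligand through which remnant particles bind receptors, had 13070 and 13059 CPM in Control and 10897 and 14309 CPM in Dph1 KO, on both sides of Control. Its log2 fold change was -0.052 (95% interval -0.79 to 0.68, edgeR adjusted p = 0.928), and its sign turned with other scalings (0.20 with no scaling beyond the library total and 0.023 with upper quartile scaling). Apoc1, which slows the uptake of particles, had 5991 and 5451 CPM in Control and 5369 and 6832 CPM in Dph1 KO (log2 fold change 0.093, 95% interval -0.60 to 0.79, edgeR adjusted p = 0.855). In CPM the genotypes overlapped for both genes. With the GC and length trend removed, Apoe was at 0.66 (SE 0.20, edgeR adjusted p = 0.0680) and Apoc1 at 0.66 (SE 0.20, edgeR adjusted p = 0.0685), neither called. By share of gene reads and by TPM, both genes were higher in each Dph1 KO library than in either Control library. All tested genes were shifted up on these scales. With no scaling beyond the library total, Apoe was at 0.20 and Apoc1 at 0.34, against a median of 0.30 over all tested genes. On log2(TPM + 1) they were at 0.33 and 0.48, against a median of 0.23. Macrophages also make Apoe, and the 7 Kupffer cell and macrophage markers summed to 176 and 198 CPM in Control and to 141 and 246 CPM in Dph1 KO, with 0 of 7 called. Their part in the Apoe level was not tested.

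Apoc2 encodes the cofactor that lipoprotein lipase requires. It had 647 and 636 CPM in Control and 343 and 557 CPM in Dph1 KO, both lower, with a log2 fold change of -0.51 (95% interval -1.16 to 0.13, edgeR adjusted p = 0.235). Without Dph1 KO replicate 2 it was called lower (-0.89, edgeR adjusted p = 0.0103), and with the GC and length trend removed the sign turned (0.11). There were 0.0495 and 0.0487 Apoc2 reads for each Apoe read in Control and 0.0315 and 0.0390 in Dph1 KO. Apoh encodes beta-2-glycoprotein I, a plasma protein that binds anionic phospholipid. It stood at 2105 and 1974 CPM in Control and 1812 and 1962 CPM in Dph1 KO (log2 fold change -0.11, 95% interval -0.73 to 0.51, edgeR adjusted p = 0.802), although the sign turned with no scaling beyond the library total (0.14).

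Counted over the members, the CPM of 6 genes (Apoa1, Apoa4, Apoa5, Apob, Apoc2 and Apoh) did not overlap between genotypes, or 60.0%, where 67.4% of all tested genes did not. This depends on the scale. By TPM and by share of gene reads, Apoa5 and Apoc2 overlapped, and Apoh, lower in Dph1 KO by CPM, was higher there. With no scaling beyond the library total, the log2 fold change of Apoh was 0.14, against a median of 0.30 over all tested genes. By TMM-scaled CPM, the levels of Apoa1, Apoa2, Apoa5, Apoc1, Apoc2, Apoc3, Apoe, Apoh and Apoa4 in Dph1 KO replicate 1 were below those in replicate 2. Apob alone was above on that scale, and by TPM and by share of gene reads Apoh was above as well. The 2 Dph1 KO libraries also differed in their relation to GC content, where the deviation of a gene from its mean had a Spearman correlation with GC of -0.68 in replicate 1 and -0.18 in replicate 2 (0.52 and 0.56 in the Control libraries). The part of GC content in the spread between the Dph1 KO libraries was not tested.

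**Figure D2:**
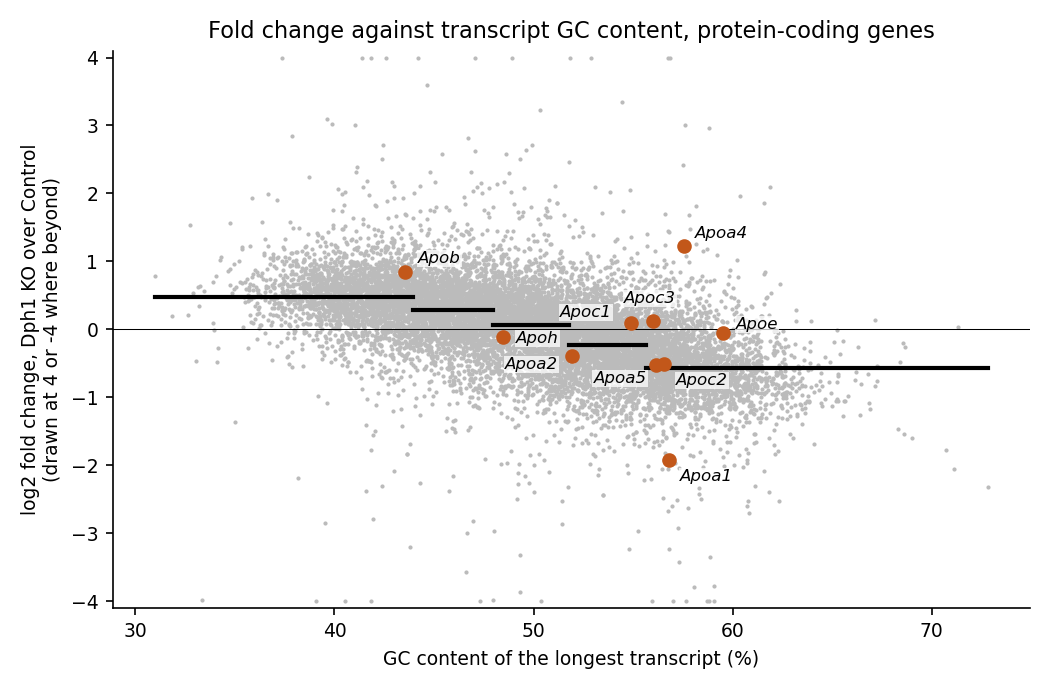
Log2 fold change (Dph1 KO over Control) against the GC content of the longest transcript for protein-coding genes (grey), with the apolipoprotein genes in orange and black bars at the median of 5 equal classes of GC content. The class medians run from 0.48 to -0.56, and Apoa1 (-1.92) and Apoa4 (1.22) lie far from the median of their class on opposite sides.

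Of the members, Apoa1, Apoa4, Apoa5, Apoc2, Apoc3 and Apoe, fall in the class with the highest GC content (55.6% to 72.8%), whose 5th and 95th percentiles of log2 fold change were -1.35 and 0.34. Within that class Apoa1 stood at percentile 1.68 and Apoa4 at percentile 99.2. Apoa5 (54.1) and Apoc2 (54.7) were near the middle, and Apoe (83.9) and Apoc3 (89.7) were in the upper part. Apob, in the class with the lowest GC content, was at percentile 84.1 of a class whose median was 0.48. With the GC and length trend removed, 3 members were called, Apoa1 lower and Apoa4 and Apoc3 higher, against 9.34% of all genes called in that fit.

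Per base of transcript, the order of the genes changed at the top. Deposited TPM values, which the authors scaled by exon length, put Apoa1 first in Control at 45347 ± 4463 TPM (SD, n = 2), followed by Apoa2 at 38591 ± 1199 TPM. Apoc1 (15970 ± 2089 TPM) and Apoe (15710 ± 1021 TPM) came next and overlapped. Then followed Apoc3 (7025 ± 314 TPM), Apoh (2582 ± 285 TPM), Apoc2 (1510 ± 115 TPM), Apoa5 (1056 ± 218 TPM), Apoa4 (394 ± 36.0 TPM) and Apob (205 ± 18.1 TPM), with no overlap between neighbours. Apob, which is moderate in reads, is thus the least abundant per length.

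In Dph1 KO the first was Apoa2 (37898 ± 6457 TPM, SD, n = 2), and Apoa1 stood at 15514 ± 2114 TPM, below Apoc1 (22106 ± 333 TPM) and Apoe (19688 ± 726 TPM). Apoc3 had 9889 ± 847 TPM, Apoh 3123 ± 310 TPM and Apob 501 ± 248 TPM. Apoa4 (1190 ± 98.9 TPM) stood above Apoa5 (948 ± 113 TPM) in both libraries, the reverse of Control, and its range overlapped that of Apoc2 (1349 ± 264 TPM). On the TPM scale, which uses no TMM factor, 7 members did not overlap between genotypes, where 67.4% of all tested genes did not. They were Apoa1, which was lower in Dph1 KO, and Apoa4, Apob, Apoc1, Apoc3, Apoe and Apoh, which were higher. All tested genes were shifted up on this scale, with a median log2 fold change of 0.23 on log2(TPM + 1). Beside it stood Apoh at 0.27, Apoe at 0.33, Apoc1 at 0.48, Apoc3 at 0.49, Apob at 1.19 and Apoa4 at 1.59.

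**Figure D3:**
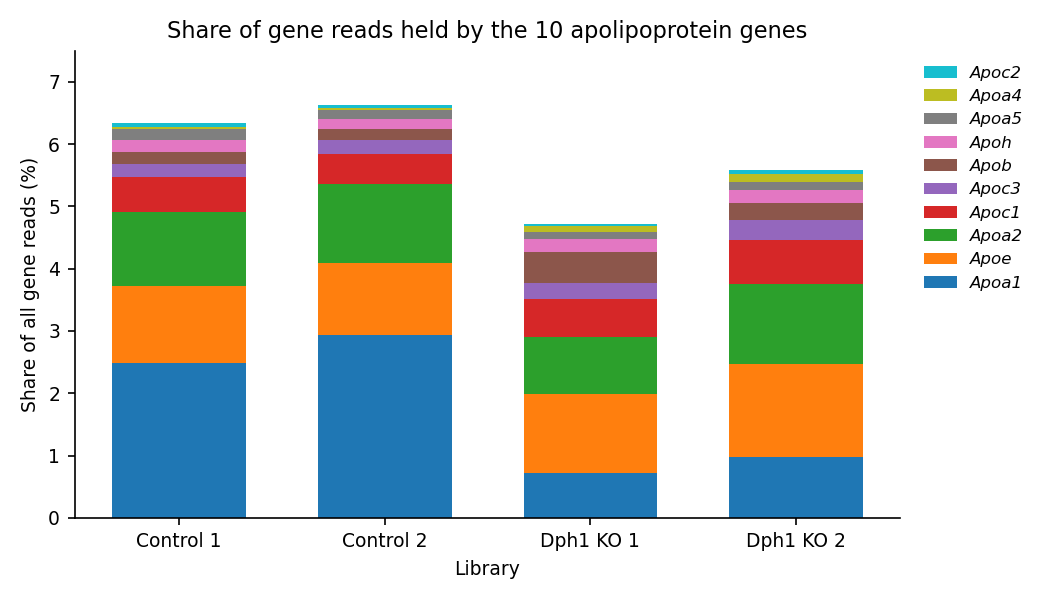
Share of all gene reads (%) held by each of the 10 apolipoprotein genes, stacked for each library. The total is 6.34% and 6.64% in Control, against 4.72% and 5.58% in Dph1 KO, and the Apoa1 part at the bottom shrinks from 2.49% and 2.94% to 0.724% and 0.983%.

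Together the 10 genes held 6.49 ± 0.21% of gene reads in Control and 5.15 ± 0.61% in Dph1 KO (SD, n = 2 each), with an exact two-sided permutation p of 0.333, the smallest this design allows. Counting error is small at this depth: the 95% Clopper-Pearson interval of the lowest share was 4.71% to 4.73%, and it covers counting error only. The shares were 6.34% and 6.64% in Control, against 4.72% and 5.58% in Dph1 KO, so both Dph1 KO libraries were lower. Apoa1 made up 39.3% and 44.3% of the members' reads in Control, against 15.3% and 17.6% in Dph1 KO. Without Apoa1, the other 9 genes held 3.85% and 3.70% of gene reads in Control, against 4.00% and 4.59% in Dph1 KO, so without Apoa1 the share was no lower in Dph1 KO.

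Intron reads gave a second readout of the same genes. Such reads can come from unspliced RNA, but their source was not tested here. No member was called on intron reads by edgeR (0 of 10, against 3.43% of 9364 genes tested), and 1 member, Apoc1, had an unadjusted p under 0.05 (log2 fold change 0.77, unadjusted p = 0.0468), where 22.9% of all genes did. The intron reads of Apoa1 numbered 382 and 282 in Control, against 177 and 485 in Dph1 KO. The Dph1 KO values lie on both sides of Control, and the log2 fold change was -0.30 (95% interval -1.11 to 0.51, edgeR adjusted p = 0.652). For each 1000 exon reads, Apoa1 had 0.787 and 0.472 intron reads in Control, against 1.20 and 2.34 in Dph1 KO. Whether the intron and the whole-gene fold changes of Apoa1 differ was not tested.

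Apob had 77 and 71 intron reads in Control, against 231 and 75 in Dph1 KO, so the high value was again that of Dph1 KO replicate 1 (log2 fold change 0.70, 95% interval -0.07 to 1.47, edgeR adjusted p = 0.253). Apoa4 had 4 to 11 intron reads in every library, too few to compare. Across the nuclear genome there were 42.2 and 34.8 intron reads for each 1000 exon reads in Control, against 61.2 and 49.0 in Dph1 KO, and the members together had 1.57 and 1.19 in Control, against 3.04 and 2.04 in Dph1 KO. The median log2 fold change of intron reads was 0.46 over all tested genes and 0.098 over the members. Reads across exon junctions were a steady part of exon reads, 18.1% to 19.8% for Apoa1 and 12.3% to 13.6% for Apoa4.

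**Figure D4:**
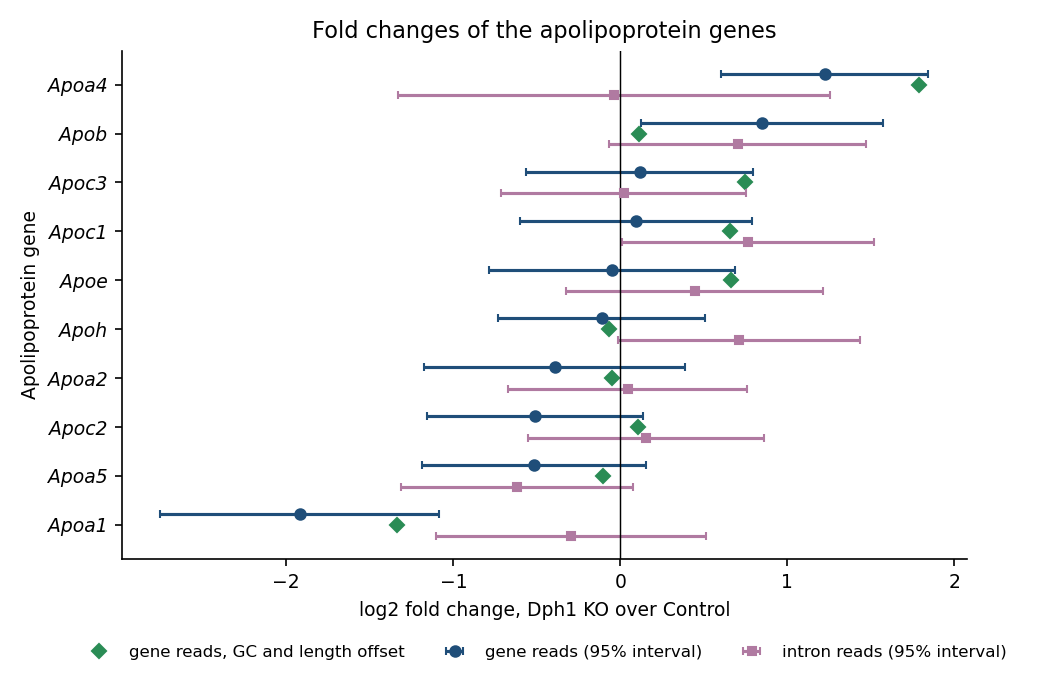
Log2 fold change (Dph1 KO over Control) of each apolipoprotein gene from gene reads (circles) and intron reads (squares), with 95% intervals from the model, and from gene reads with the GC and length trend removed (diamonds). Among the gene-read intervals those of Apoa1, Apoa4 and Apob lie to one side of 0. Among the intron intervals that of Apoc1 (0.011 to 1.52) does, and that of Apoa1 (-1.11 to 0.51) includes 0.

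Of 8 tested genes for other proteins that ride on lipoproteins, 2 rose, 0 fell and 6 were not called, with a median log2 fold change of 0.39. Called genes were 25.0% of this short list and 12.3% of all tested genes. Pon3 and Pon1 encode HDL-bound lactonases and both rose, Pon3 from 15.7 and 15.5 to 38.6 and 30.5 CPM (log2 fold change 1.15, SE 0.20, edgeR adjusted p = 0.0107) and Pon1 from 149 and 136 to 342 and 213 CPM (0.96, SE 0.27, edgeR adjusted p = 0.0456). The Pon1 call was lost with the GC and length trend removed (0.58, edgeR adjusted p = 0.0653) and without Control replicate 1, Control replicate 2 or Dph1 KO replicate 1 (1.02, 0.89 and 0.60), and narrowly with limma-voom (0.92, adjusted p = 0.0519). Apoc4, which lies between Apoc2 and Apoc1, had 2107 and 1963 CPM in Control and 884 and 1729 CPM in Dph1 KO and was not called (-0.64, edgeR adjusted p = 0.212), and neither was Clu (-0.48, edgeR adjusted p = 0.263, and -0.044 with the GC and length trend removed).

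Among 17 genes of VLDL assembly and secretion, 11.8% were called, near the 12.3% of all tested genes. In this list 2 fell and 15 were not called, with a median of -0.29. The 2 were Dgat1, which makes triglyceride (log2 fold change -0.79, SE 0.22, edgeR adjusted p = 0.0432), and Tm6sf2, which aids the lipidation of VLDL (-0.77, SE 0.22, edgeR adjusted p = 0.0458). Both calls were lost with the GC and length trend removed (-0.29 and -0.32) and without Control replicate 1, Control replicate 2 or Dph1 KO replicate 1 (Dgat1 -0.75, -0.83 and -0.56, Tm6sf2 -0.90, -0.63 and -0.59). They were also lost with no scaling beyond the library total (Dgat1 -0.54, edgeR adjusted p = 0.0679, Tm6sf2 -0.51, edgeR adjusted p = 0.0763). Mttp, the transfer protein that loads lipid onto Apob and a gene chosen after its values were seen, had 207 and 247 CPM in Control and 289 and 236 CPM in Dph1 KO (0.21, edgeR adjusted p = 0.555). None of the 3 genes of Apob mRNA editing was called, and at an unadjusted p under 0.05 there were 2, both higher, where 34.2% of all tested genes had such a p. One of these was the cofactor gene A1cf (0.65, edgeR adjusted p = 0.120, and 0.28 with the GC and length trend removed).

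Receptors and their regulators held 1 fall and 8 uncalled genes among 9 (11.1% called, near the 12.3% of all tested genes), with a median of -0.44. The 1 was Vldlr, a receptor for Apoe-bearing particles, which went from 6.20 and 5.72 to 1.82 and 1.87 CPM (log2 fold change -1.69, SE 0.28, edgeR adjusted p = 0.00786). Both genotypes were at low levels and did not overlap.

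Of 16 genes of lipases, lipid transfer and remodelling, 1 rose and 1 fell, with a median of -0.15. Called genes were 12.5% of this list and 12.3% of all tested genes. Lipc, the hepatic lipase gene, rose from 23.3 and 24.3 to 46.2 and 39.5 CPM (log2 fold change 0.85, SE 0.19, edgeR adjusted p = 0.0254), which did not hold without either Control library (0.81 and 0.88). Lmf1, which matures lipases in the endoplasmic reticulum, fell (-1.33, SE 0.26, edgeR adjusted p = 0.0157), which did not hold when Control replicate 2 was left out (-1.02). Lcat, whose enzyme Apoa1 activates, had 1101 and 1530 CPM in Control and 578 and 792 CPM in Dph1 KO, with no overlap, and missed the threshold (-0.94, SE 0.30, edgeR adjusted p = 0.0625, and -0.47 with the GC and length trend removed).

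Transcription factors known to act on apolipoprotein genes held 1 rise and 2 falls among 28, with a median of -0.24. Called genes were 10.7% of this list and 12.3% of all tested genes. Rxrb, a partner of many nuclear receptors, fell (log2 fold change -1.30, SE 0.27, edgeR adjusted p = 0.0193, and -0.67 with the GC and length trend removed, still called), and so did the sterol regulator gene Srebf2 (-0.83, SE 0.21, edgeR adjusted p = 0.0340), while Prox1 rose (0.77, SE 0.22, edgeR adjusted p = 0.0458). The Srebf2 and Prox1 calls were lost with the GC and length trend removed (-0.43 and 0.41) and without Control replicate 1 (-0.75 and 0.66) or Control replicate 2 (-0.92 and 0.87), and that of Prox1 narrowly with limma-voom (0.75, adjusted p = 0.0505). Hnf4a, the hepatocyte factor that drives several of these genes and one chosen after its values were seen, had 394 and 398 CPM in Control and 472 and 448 CPM in Dph1 KO (0.22, 95% interval -0.32 to 0.76, edgeR adjusted p = 0.547). Creb3l3, which activates Apoa4, was not called (-0.54, edgeR adjusted p = 0.185, and -0.10 with the GC and length trend removed).

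**Figure D5:**
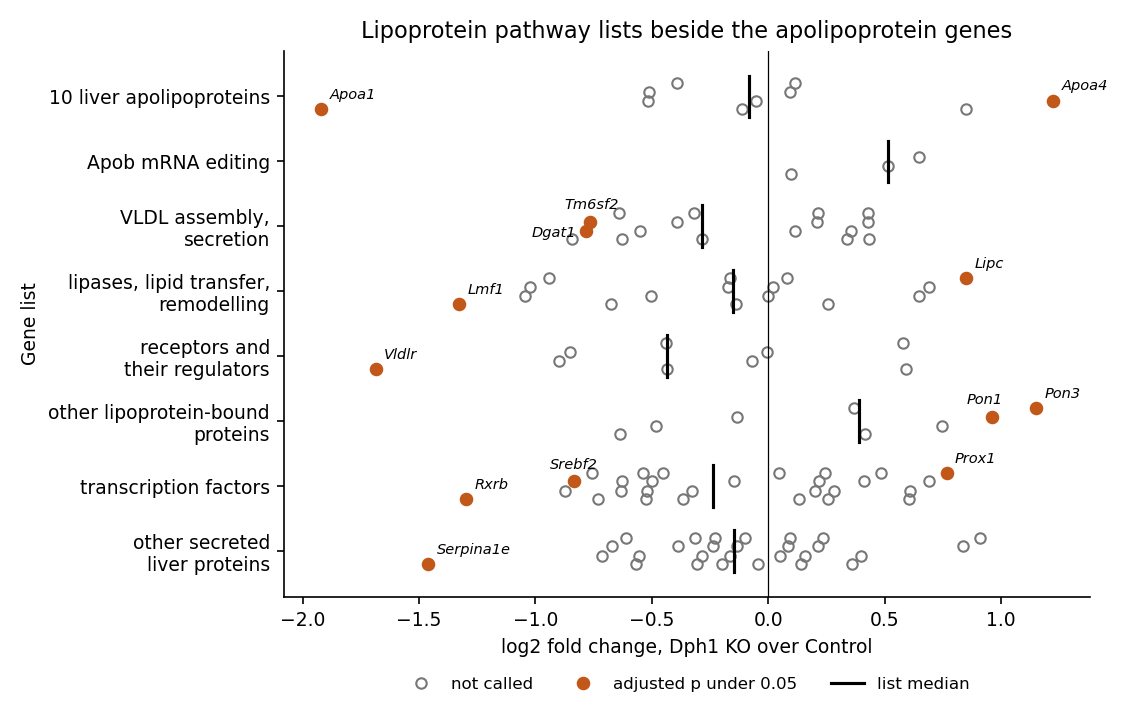
Log2 fold change (Dph1 KO over Control) of each tested gene in the apolipoprotein set, in 6 lists of the lipoprotein pathway and in a list of other secreted liver proteins, with filled points for genes at an adjusted p under 0.05 and a bar at each list's median. Apoa1 (-1.92) is the lowest point, and Apoa4 (1.22) is the highest.

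Over the 6 lists, 4 of 81 tested genes rose and 6 fell, a share near the 12.3% of all genes. Other abundant secreted products of hepatocytes served as a comparison for Apoa1. Of 28 tested, DESeq2 called 2 higher and 5 lower, where it called 15.0% of all genes. In edgeR 1 fell, or 3.57%, where 7.47% of all tested genes fell, and 27 were not called, with a median of -0.15. The 1 was Serpina1e, a protease inhibitor gene with near-identical copies, at 13334 and 15135 CPM in Control and 5268 and 5079 CPM in Dph1 KO (log2 fold change -1.46, SE 0.32, edgeR adjusted p = 0.0234), and it was no longer called without Control replicate 1 (-1.56, edgeR adjusted p = 0.0501) or Control replicate 2 (-1.37, edgeR adjusted p = 0.113). Albumin, Alb, had 26613 and 36877 CPM in Control and 36435 and 31324 CPM in Dph1 KO (0.094, edgeR adjusted p = 0.875). There were 0.992 and 0.901 Apoa1 reads for each Alb read in Control and 0.172 and 0.303 in Dph1 KO.

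Intestine also expresses Apoa1, Apoa4 and Apob, and the 6 enterocyte markers summed to 13.2 and 10.1 CPM in Control and 16.1 and 12.6 CPM in Dph1 KO, nearly all from Fabp2, with Alpi at 0 in every library. The sinusoidal endothelium markers summed to 159 to 170 CPM in Control and 154 to 156 CPM in Dph1 KO. The stellate cell and fibroblast markers summed to 118 to 134 CPM in Control and 115 to 129 CPM in Dph1 KO. Of these 6 tested stellate cell and fibroblast genes 1 rose and 2 fell, so a level sum held changes in both directions. Over all tested genes 12.3% were called. The erythroid markers summed to 854 and 1732 CPM in Control and 548 and 584 CPM in Dph1 KO, with 1 called higher and 1 lower of 4. These were the near-identical globin genes Hba-a2, higher, and Hba-a1, lower, whose reads the counting could split between them. The lymphocyte markers summed to 5.27 and 6.17 CPM in Control and 3.09 and 3.61 CPM in Dph1 KO, with 1 of 2 tested, Cd79a, called lower. The part of these cells in the apolipoprotein levels was not tested. In bulk liver, fewer cells of a type and less RNA per cell cannot be told apart.

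Among 1493 other genes with a mean of at least 100 CPM, the pattern over the 4 libraries nearest to the median pattern of the members was that of Psen2, Myl6, Atp5h, Blvrb and Taldo1. Their distances in centred log2 CPM were 0.061 to 0.074. These genes had log2 fold changes from -0.17 to -0.063. By TMM-scaled CPM the median pattern of the members, like theirs, was lowest in Dph1 KO replicate 1 and level elsewhere. This depends on the scale. By share of gene reads and by TPM, that library was lowest for Apoa1, Apoa2, Apoa5 and Apoc2 but not for the other members. The pattern of Apoa1 was unlike this median, and, in a search added after its values were seen, was nearest to that of Fam195b, Igfbp2, Gamt, Dhcr7 and Igfbp4, at distances of 0.28 to 0.30. Igfbp4, a carrier of insulin-like growth factors, was the most abundant of these at 3749 and 4483 CPM in Control and 1023 and 1656 CPM in Dph1 KO (log2 fold change -1.62, SE 0.34, edgeR adjusted p = 0.0191). Because these genes were picked by their likeness to Apoa1, their lower values in Dph1 KO follow from the choice and are no separate evidence.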

How the data were processed

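Liver RNA was read in 4 libraries (Control n = 2, Dph1 KO n = 2), made with a stranded mRNA kit per the labels' protocols. Per the submitters' processing notes, coordinates are those of GRCm38 (mm10). Aligner, counter and use of strand: not given in the sources used here. The authors deposited whole-number read counts per gene, total and uniquely matched, for genes, exons, exon junctions and introns. The deposited tables also hold TPM, used for levels per length, and RPKM, which was not used, per the file headers. The deposited ratio columns, a fraction from 0 to 1 within each gene, were not used. Of the annotation columns, chromosome, region and gene ID gave coordinates, strands and gene matches, and exon length entered the trend on GC and length. Total gene reads were tested, at 19474596 to 21137358 per library. Uniquely matched reads were at least 99.9% of each member's reads.

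Genes were kept by filterByExpr, scaled by TMM and compared by edgeR 4.0.16's quasi-likelihood test (R 4.3.3), with genotype as the only term and Benjamini-Hochberg adjustment over 13303 genes at 0.05. The biological coefficient of variation was 18.45%. "Rose" and "fell" mark genes past that threshold. The SE is the log2 fold change divided by the root of F, and intervals use the model's degrees of freedom. Intron reads were tested alike with the library sizes and factors of gene reads, and 95% Clopper-Pearson intervals were from SciPy 1.17.1.

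Each gene's GC content is that of its longest transcript in GENCODE M21 (found for 99.5% of protein-coding genes), and a smooth trend on GC and exon length (mgcv 1.9.3, basis size 6) was removed from each library by an offset. DESeq2 1.42.0, limma 3.58.1 (voom, and trend on log2(TPM + 1)), other scalings, read classes and each library left out were alternatives. Where 1 library remained in a genotype, its spread was taken from the other genotype's pair. The fits were tested on simulated data. The members and lists were chosen with earlier results of these data known. Some list entries are not reported here. Of the remaining 180, 4 were matched by gene ID and 1 was not matched. Named genes were the members, Dph1, up to 5 called genes of each list and its 2 most abundant uncalled genes, the 5 genes nearest the members' median pattern and, of each marker list, the genes at 0 in every library and the most abundant one; the text names a part of these. Mttp, Hnf4a and the genes nearest to Apoa1 were added with their values known.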

Additional observations from a re-analysis of the deposited data

How the results depend on the processing

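The fall of Apoa1 kept its sign in all 14 alternatives and was called in each but limma-trend on log2(TPM + 1), where 0 of 10 members, 0 of 81 lipoprotein pathway genes and 0 of 28 secreted protein genes were called, as were 0.0226% of all genes. With any 1 library left out, there were 1 to 5 called members, 4 to 43 called pathway genes and 0 to 5 called secreted protein genes. The 5 members came without Dph1 KO replicate 2, where 39.3% of all genes were called, and 1 was called without Control replicate 1 (5.43% of all genes) and without Control replicate 2 (3.82%). Called pathway genes numbered 26 when libraries were scaled by their totals alone (25.7% of all genes called), 16 of 84 with no filter on low counts (10.99%), 18 with total exon reads (15.4%) and 20 with DESeq2 (15.0%), against 10 of 81 (12.3%). Called secreted protein genes numbered 3 with no scaling (25.7% of all genes called), with upper quartile scaling (15.3%) and with total exon reads (15.4%). They numbered 2 with no filter (10.99%), with uniquely matched reads (12.3%) and with the GC and length offset (9.34%). DESeq2 called 7 (15.0%), against 1 in the main fit (12.3%). With no scaling, 76.9% of the calls over all genes were rises, against 39.4% with TMM, and the median log2 fold change of all genes moved from 0.041 to 0.30, so directions are relative to the scaling.

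Signs turned only for values that were not called. Apoe gave 0.20 with no scaling, 0.023 with upper quartile scaling, 0.33 with limma-trend, 0.66 with the GC and length offset, and -0.25 to 0.16 with 1 library left out. Apoh gave 0.14 with no scaling and 0.27 with limma-trend, Apoc2 0.11 with the offset, and Mttp -0.13 with the offset. With 1 library left out, Apoc1 ranged from -0.077 to 0.28, Apoc3 from -0.14 to 0.37 and Alb from -0.13 to 0.35. For intron reads the ranges were -1.27 to 0.31 for Apoa1, -0.35 to 0.38 for Apoa2, -0.57 to 0.77 for Apoa4, -0.22 to 1.28 for Apob and -0.55 to 0.46 for Apoc3. With TMM factors of the intron reads, Apoa2 gave -0.45, Apoc2 -0.30, Apoc3 -0.37 and Apoe -0.019. The cause of these changes was not tested. The difference in the members' share of gene reads, -1.34 percentage points, lay between -1.77 and -0.911 with 1 library left out. It was -1.35 without the mitochondrial genome in the denominator, -1.54 with uniquely matched gene reads and -1.62 by TPM. No paired analysis was possible because the labels give the libraries no shared replicate numbers.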
